A study of Sus scrofa with 24 samples.

Results

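ssc-miR-132 and ssc-miR-212 are the pig entries of a microRNA pair that is cut from hairpins lying next to each other on one chromosome. The pair was taken from the deposited small RNA table by name, and the rule found 2 of the 1587 entries, each written without an arm suffix. Both were chosen by their TPM levels over the 8 groups in earlier results of the same 24 libraries, so their levels and changes in those libraries are given as a description, with no test. Both passed the filter on low values, which kept the 430 entries that averaged 1 TPM or more across all libraries.

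The libraries came from preadipocytes of six-day-old Yorkshire piglets, isolated from back subcutaneous fat (BF) or from the longissimus dorsi muscle (IMF, intramuscular) and brought to differentiate in culture. Each source was collected on days 0, 2, 4 and 8 with 3 libraries per group, named BF-0d to BF-8d and IMF-0d to IMF-8d. The study's methods describe, for both sources alike, an induction medium with 3-isobutyl-1-methylxanthine, dexamethasone and insulin up to day 2, a medium with insulin alone up to day 4, and growth medium after that, so day 0 precedes induction. The methods name 3 piglets but do not tie them to libraries, so the spread between libraries may be partly technical. The 4 days differ in medium as well as in time, which cannot be told apart here. BF and IMF tissue also got digestions of unequal length and strength, which cannot be told apart from the source.

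A microRNA acts by pairing its seed, bases 2 to 8 from the 5′ end, with messenger RNAs, which are then repressed. The precursor folds into a hairpin, and the mature strand can come from the 5′ arm, the 3′ arm or both. The miR-132 and miR-212 hairpins are known to be cut from a shared primary transcript that the transcription factor CREB induces when cyclic AMP rises, and the pair is best known from neurons, immune cells and vessels. 3-isobutyl-1-methylxanthine blocks the enzymes that break down cyclic AMP. The 3′ strands of the pair are known to share their seed.

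The sequences show which strand each entry counts. They were read from the study's list of miRNA sequences and are given 5′ to 3′ with the seed in capitals.
ssc-miR-132: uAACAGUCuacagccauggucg
ssc-miR-212: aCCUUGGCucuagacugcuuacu
The seeds differed between the entries, and the whole mature sequences, set side by side from the first base, were identical at 7 positions. The entries come from different arms: ssc-miR-132 is the 3′ strand of its hairpin, bases 47 to 68 of 78, whereas ssc-miR-212 is the 5′ strand of its own, bases 11 to 33 of 82. The hairpins are given whole, with the counted strand in capitals.
miR-132 hairpin: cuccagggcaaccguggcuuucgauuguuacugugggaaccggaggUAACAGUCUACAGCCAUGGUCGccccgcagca
miR-212 hairpin: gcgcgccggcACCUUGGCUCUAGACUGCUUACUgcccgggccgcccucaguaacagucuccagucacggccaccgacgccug
The seed of ssc-miR-132 was found in the 3′ arm of the miR-212 hairpin at bases 52 to 58. The stretch of that arm that starts 1 base before it matched ssc-miR-132 at 17 of 22 bases, and the stretch of the miR-132 hairpin that starts at base 11 matched ssc-miR-212 at 14 of 23. Both stretches are shown with bases 2 to 8 in capitals.
miR-212 hairpin, 3′ arm stretch: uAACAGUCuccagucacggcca
miR-132 hairpin, 5′ arm stretch: aCCGUGGCuuucgauuguuacug
The entries therefore share a locus but not a seed: the values of ssc-miR-212 below are those of the 5′ strand, and no value for the 3′ strand of the miR-212 hairpin was analysed here. Among the 958 entries for which a sequence was read, 0 others had the seed of ssc-miR-132 and 0 others that of ssc-miR-212.

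Each mature sequence had 1 exact copy in the Sscrofa11.1 genome, on the minus strand of chromosome 12, as in RefSeq, whereas the study's list of sequences gives the plus strand for both. Strands here are those of the match. The miR-132 hairpin lies at chr12:48162625-48162702, with the mature strand at chr12:48162635-48162656. The miR-212 hairpin lies at chr12:48163054-48163135, with its mature strand at chr12:48163103-48163125. On the minus strand miR-212 comes first, and 351 bases separate the hairpins. In the RefSeq annotation neither hairpin lay wholly inside a gene, with genes named as microRNAs left aside, and partial overlap was not examined. On either side, the nearest of the remaining genes were OVCA2, 850 bases from the miR-132 hairpin, and HIC1, a transcriptional repressor, 4725 bases from the miR-212 hairpin. Both are on the plus strand. Predicted folding energies were −38.2 kcal/mol for miR-132 and −34.1 kcal/mol for miR-212, and 18 bases of each mature strand were paired.

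**Figure D1:**
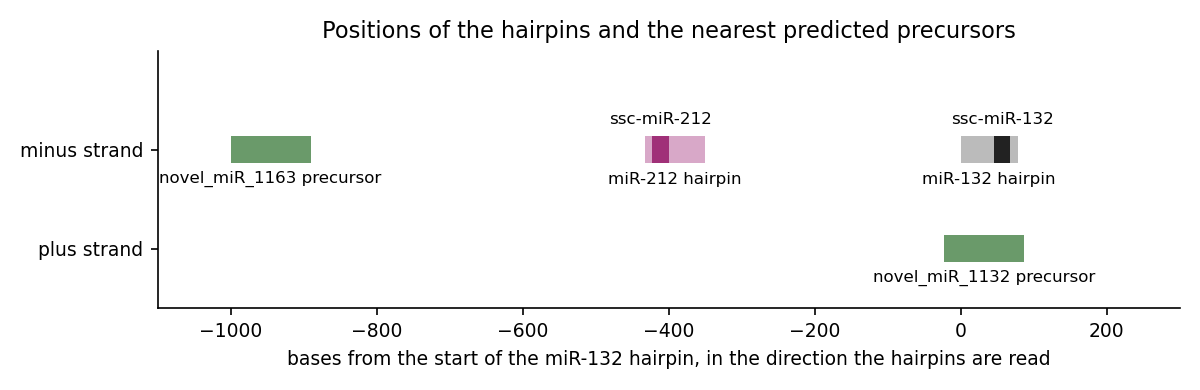
Positions of the miR-132 and miR-212 hairpins and of the 2 nearest predicted precursors among the 958 entries with a sequence read, in bases from the start of the miR-132 hairpin (horizontal axis) and by strand (vertical axis). Dark blocks are the counted mature strands, which sit in the 5′ arm of miR-212 and the 3′ arm of miR-132. The predicted precursor novel_miR_1132 covers the miR-132 hairpin on the other strand.

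Values are in TPM, which here means reads of an entry per 1000000 reads counted on all listed miRNAs of that library. Libraries held from 4954845 to 16863560 such reads, and a floor of 3 reads stood at 0.178 to 0.605 TPM, a limit that covers counting error only. ssc-miR-21-5p alone took 27.9% to 60.5% of a library's reads, with its lowest shares, 27.9% to 40.3%, in BF-8d. A TPM value of any other entry moves with that share. ssc-miR-132 had 259 to 1489 reads per library and a mean of 55.9 TPM, rank 129 of all entries. ssc-miR-212 had 22 to 479 reads per library and a mean of 11.4 TPM, rank 211.

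In BF, ssc-miR-132 was low on day 0 and high on days 4 and 8. The 3 BF-0d libraries held 27.4, 27.4 and 30.4 TPM, and the BF-2d libraries 56.1, 57.3 and 38.4 TPM. The BF-4d libraries held 77.2, 137 and 116 TPM, and the BF-8d libraries 116, 95.9 and 83.2 TPM. Every BF-2d library was above every BF-0d library, and every BF-4d library above every BF-2d library, whereas days 4 and 8 overlapped. The means were 28.4 ± 1.73, 50.6 ± 10.6, 110.0 ± 30.2 and 98.4 ± 16.6 TPM on days 0, 2, 4 and 8 (SD, n = 3).

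In IMF, the level of ssc-miR-132 stayed near its day 0 value up to day 4 and was higher on day 8. IMF-0d held 32.7, 29.6 and 26.9 TPM, and IMF-2d 37.7, 33.5 and 36.0 TPM. IMF-4d held 25.7, 29.2 and 25.5 TPM, and IMF-8d 73.7, 58.4 and 69.6 TPM. The day 2 libraries lay just above those of day 0 and day 4, and the lowest day 8 library lay well above all of them. The means were 29.8 ± 2.92, 35.7 ± 2.11, 26.8 ± 2.09 and 67.2 ± 7.91 TPM in order of day (SD, n = 3).

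ssc-miR-212 was on average less abundant than ssc-miR-132 in each group, and its high groups were the same. BF-0d held 6.42, 5.17 and 4.57 TPM, and BF-2d 8.42, 10.5 and 5.11 TPM. BF-4d held 18.9, 35.8 and 43.0 TPM, and BF-8d 23.5, 16.9 and 24.8 TPM. Days 0 and 2 overlapped, days 4 and 8 overlapped, and the libraries of days 4 and 8 all lay above those of days 0 and 2. The means were 5.39 ± 0.945, 8.00 ± 2.70, 32.5 ± 12.4 and 21.8 ± 4.23 TPM (SD, n = 3).

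In IMF, ssc-miR-212 held 6.19, 3.61 and 5.40 TPM on day 0 and 2.20, 3.82 and 5.19 TPM on day 2. It held 4.44, 4.70 and 3.41 TPM on day 4 and 13.8, 9.62 and 7.69 TPM on day 8. The libraries of the 3 earlier days overlapped, and those of day 8 lay above all of them. The means were 5.07 ± 1.32, 3.74 ± 1.5, 4.18 ± 0.683 and 10.4 ± 3.12 TPM (SD, n = 3).

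**Figure D2:**
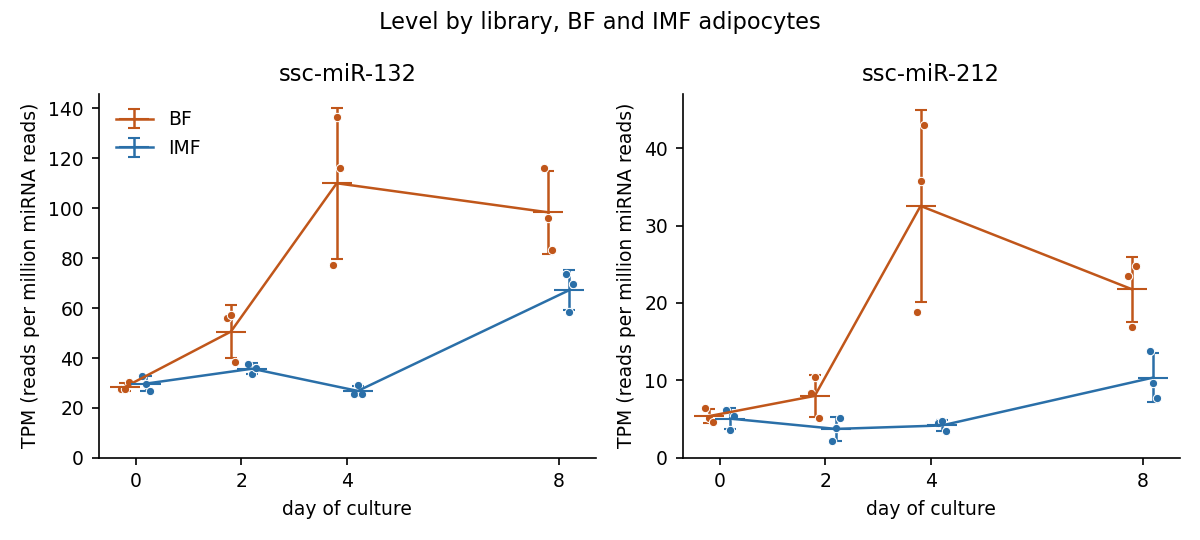
TPM (vertical axis, linear from 0) of ssc-miR-132 and ssc-miR-212 against day of culture in BF and IMF adipocytes. Each dot is a library, horizontal marks are means and bars are SD (n = 3). BF and IMF start together on day 0, lie farthest apart on day 4, with ssc-miR-132 at 110.0 against 26.8 TPM, and come closer on day 8.

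Ordered by mean, ssc-miR-132 was lowest in IMF-4d, then BF-0d and IMF-0d, each of which overlapped with the one before. IMF-2d, BF-2d and IMF-8d followed, each apart from its neighbours on both sides, and BF-8d and BF-4d were highest and overlapped. The highest library stood 5.35 times above the lowest. For ssc-miR-212 the order from the lowest was IMF-2d, IMF-4d, IMF-0d, BF-0d, BF-2d and IMF-8d, and each of these overlapped with its neighbour. A gap separated IMF-8d from BF-8d, which overlapped with BF-4d at the top. Its highest library stood 19.6 times above its lowest.

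The spread within groups is set beside the counting error, without a test. The coefficient of variation of ssc-miR-132 ran from 5.91% in IMF-2d, where counting error gives 5.35%, to 27.4% in BF-4d, where counting error gives 3.04%. For ssc-miR-212 it ran from 16.3% in IMF-4d, against 13.7% from counting, to 40.1% in IMF-2d, against 16.6%. In BF-4d the first library was lowest for both miRNAs. The lowest library of a group was the same for both in 3 of 8 groups and the highest in 4 of 8.

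Changes were computed as differences of log2(TPM + 1), taking the earlier day from the later one, or BF from IMF on the same day, which understates the change of low entries. From BF-0d to BF-8d ssc-miR-132 was higher by 1.74 (SE 0.20) and ssc-miR-212 by 1.83 (SE 0.23). From IMF-0d to IMF-8d the differences were 1.15 (SE 0.14) and 0.90 (SE 0.26). The day 8 level was thus above the day 0 level in both sources and for both miRNAs, with no overlap of libraries. With the reads of ssc-miR-21-5p left out of the total, the differences were 1.18 and 1.35 in BF and 0.73 and 0.55 in IMF.

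The days between which the levels differed were followed step by step. From BF-0d to BF-2d ssc-miR-132 was higher by 0.79 (SE 0.19) and ssc-miR-212 by 0.46 (SE 0.26), a value that was 0.26 without BF-2d library 2 and 0.71 without BF-2d library 3. From BF-2d to BF-4d the differences were 1.09 (SE 0.28) and 1.87 (SE 0.34), and from BF-4d to BF-8d they were −0.13 (SE 0.26) and −0.50 (SE 0.32). Without ssc-miR-21-5p in the total, the last of these steps was −0.55 and −0.91. With each library left out in turn it ran from −0.37, without BF-4d library 1, to 0.04, without BF-4d library 2, for ssc-miR-132. For ssc-miR-212 it ran from −0.84, without BF-4d library 1, to −0.27, without BF-4d library 3. In IMF, the step from day 0 to day 2 was 0.26 (SE 0.11) for ssc-miR-132 and −0.38 (SE 0.30) for ssc-miR-212. The step from day 2 to day 4 was −0.40 (SE 0.11) and 0.17 (SE 0.27). With each library left out in turn, the ssc-miR-212 step from day 0 to day 2 ran from −0.60, without IMF-2d library 3, to −0.13, without IMF-2d library 1, and that from day 2 to day 4 ran from −0.08 to 0.39 without library 1 and library 3 of IMF-2d. The step from day 4 to day 8 was 1.29 (SE 0.15) and 1.11 (SE 0.24). In IMF both miRNAs differed most over the last step. In BF ssc-miR-212 differed most over the middle step, and for ssc-miR-132 the first and middle steps lay within their errors of each other. Without BF-2d library 3 those steps of ssc-miR-132 were 0.97 and 0.91, in the opposite order.

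The same contrast was computed as the BF change minus the IMF change in a fit of all 24 libraries, as an estimate with no test. From day 2 to day 4 it was 1.49 (SE 0.28) for ssc-miR-132 and 1.70 (SE 0.41) for ssc-miR-212, beside a median of 0.21 over the 430 tested entries. From day 4 to day 8 it was −1.42 (SE 0.28) and −1.61 (SE 0.41), beside a median of −0.17. From day 0 to day 2 it was 0.53 (SE 0.28) and 0.84 (SE 0.41), and from day 0 to day 8 it was 0.60 (SE 0.28) and 0.93 (SE 0.41), beside medians of 0.04 and 0.04. The signs were alike for both miRNAs at each step.

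Between the sources, the pair was alike before induction and farthest apart on day 4. On day 0 IMF minus BF was 0.06 (SE 0.12) for ssc-miR-132 and −0.09 (SE 0.22) for ssc-miR-212, with overlapping libraries. Single libraries turned these small differences, to −0.0075 for ssc-miR-132 without IMF-0d library 1, and for ssc-miR-212 to 0.03 without BF-0d library 1 and 0.10 without IMF-0d library 2. On day 2 the differences were −0.47 (SE 0.18) and −0.93 (SE 0.33). On day 4 they were −1.96 (SE 0.26) and −2.63 (SE 0.29). The mean TPM on that day, with no pseudocount, was 4.10 times higher in BF than in IMF for ssc-miR-132 and 7.78 times higher for ssc-miR-212. On day 8 they were −0.54 (SE 0.18) and −1.02 (SE 0.24). The libraries did not overlap on day 4 or day 8 for either miRNA, and on day 2 they did not for ssc-miR-132 but did for ssc-miR-212.

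The scale of these differences between sources depends on how libraries are set on a common footing, since the median tested entry was itself lower in IMF. That median was −0.13, −0.14, −0.34 and −0.28 on days 0, 2, 4 and 8. A median-of-ratios scaling of the libraries moved it by 0.12, 0.13, 0.34 and 0.25. Under that scaling the day 4 differences were −1.54 for ssc-miR-132 and −2.25 for ssc-miR-212. The day 8 differences were −0.22 and −0.72, and those of day 0 were 0.22 and 0.05. For ssc-miR-132 the day 8 difference thus shrank by more than 1.5 times, and for ssc-miR-212 the small day 0 difference turned sign, as it did under edgeR (0.17) and DESeq2 (0.12).

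**Figure D3:**
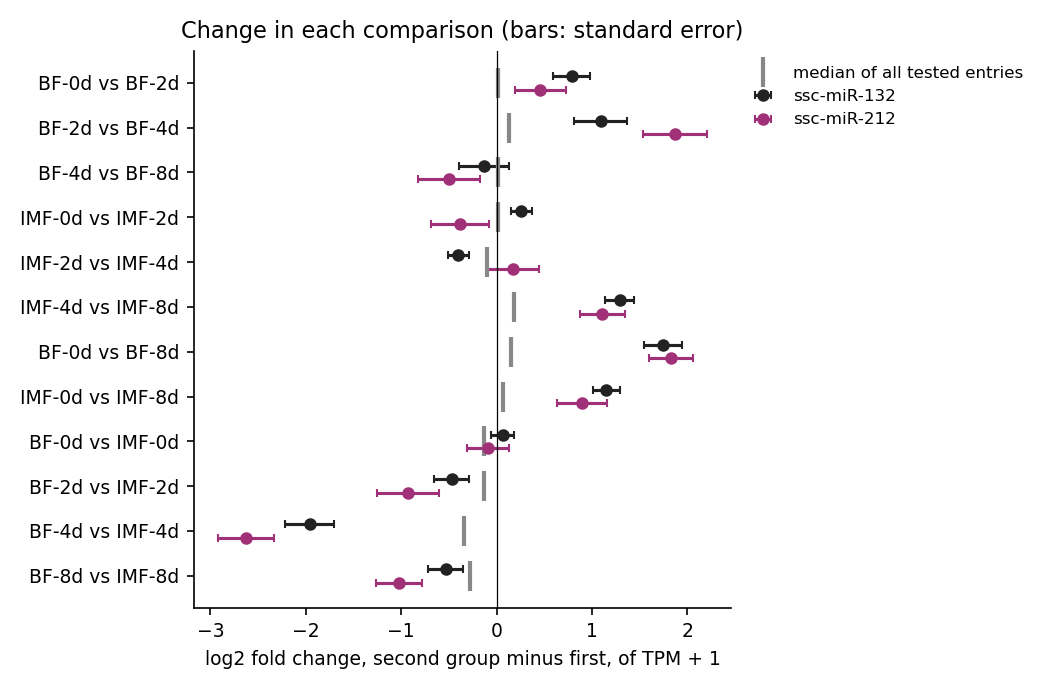
Log2 fold change of TPM + 1 (horizontal axis, second group minus first) in the 12 comparisons for ssc-miR-132 and ssc-miR-212, with bars for the standard error and grey ticks for the median of the 430 tested entries. The longest distances from 0 are the day 4 differences between BF and IMF, −1.96 and −2.63, and both miRNAs lie right of 0 from day 0 to day 8 in either source.

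Calls follow the study's criteria, a false discovery rate under 0.05 and a fold change above 1.5, with limma on the whole table. Since the rule knew these contrasts, nothing is read from the members' calls, which are set beside the share of the 430 tested entries called. Both miRNAs passed in 5 comparisons. These were BF-2d vs BF-4d, where 6.05% of entries passed, IMF-4d vs IMF-8d (13.0%), BF-0d vs BF-8d (42.8%), IMF-0d vs IMF-8d (30.5%) and BF-4d vs IMF-4d (36.3%). ssc-miR-212 alone passed in BF-8d vs IMF-8d, where 37.2% did. Neither passed in BF-0d vs BF-2d (4.19%), BF-4d vs BF-8d (3.02%), BF-0d vs IMF-0d (29.3%) or BF-2d vs IMF-2d (12.3%). In IMF-0d vs IMF-2d and in IMF-2d vs IMF-4d limma called 0 entries (0%). In these comparisons 68 and 65 entries had an unadjusted p under 0.05, edgeR called 7 and 1 entries, and DESeq2 called 9 and 2. The calls also moved with the method. ssc-miR-132 passed in BF-0d vs BF-2d under edgeR (0.84), DESeq2 (0.84), median-of-ratios scaling (0.80), 1 fit of all libraries and a filter at 10 TPM. ssc-miR-212 passed in BF-2d vs IMF-2d under edgeR (−0.92), 1 fit of all libraries and the filter at 10 TPM. The call of ssc-miR-132 in BF-2d vs BF-4d was lost under edgeR (0.94), without ssc-miR-21-5p in the total (0.97) and with no filter. The calls of ssc-miR-212 in IMF-4d vs IMF-8d and IMF-0d vs IMF-8d were lost without ssc-miR-21-5p in the total (0.88 and 0.55). With no filter it lost those, BF-2d vs BF-4d and BF-8d vs IMF-8d.

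Some calls also changed when a single library was left out, which leaves fewer libraries to fit. Some were lost although the difference grew. The call of ssc-miR-132 in BF-2d vs BF-4d was lost without any one of the 3 BF-2d libraries or without BF-4d library 2 or 3, at differences of 1.17, 1.19, 0.91, 0.91 and 1.03. That of ssc-miR-212 was lost without BF-2d library 3, BF-4d library 2 or BF-4d library 3, at 1.61, 1.76 and 1.63. In IMF-4d vs IMF-8d the call of ssc-miR-212 was lost without IMF-4d library 1 or 3 or IMF-8d library 1 or 2, at 1.15, 0.99, 0.90 and 1.14. In IMF-0d vs IMF-8d it was lost without IMF-0d library 2 or 3 or IMF-8d library 1 or 2, at 0.71, 0.95, 0.69 and 0.93. Calls were gained without BF-2d library 3 for ssc-miR-132 in BF-0d vs BF-2d (0.97) and in BF-2d vs IMF-2d (−0.65), and for ssc-miR-212 in BF-2d vs IMF-2d (−1.19). ssc-miR-132 also passed in BF-8d vs IMF-8d without BF-8d library 3 (−0.65) or IMF-8d library 1 (−0.60). The directions of the 11 calls held in each of these fits.

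The libraries of the groups compared did not overlap in 10 of 12 comparisons for ssc-miR-132 and in 6 of 12 for ssc-miR-212. The share of tested entries without overlap was 29.8% in BF-0d vs BF-2d, 34.9% in BF-2d vs BF-4d and 26.5% in BF-4d vs BF-8d. It was 19.8% in IMF-0d vs IMF-2d, 22.1% in IMF-2d vs IMF-4d and 38.4% in IMF-4d vs IMF-8d. It was 53.7% in BF-0d vs BF-8d and 48.8% in IMF-0d vs IMF-8d. Between the sources it was 47.7%, 33.3%, 50.2% and 51.2% on days 0, 2, 4 and 8.

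The levels of the miRNAs were also set against each other within each library, where the library total cancels. The ratio of ssc-miR-132 to ssc-miR-212 had a median of 5.72 and a range of 2.71 to 17.1 over the 24 libraries. In BF its means were 5.41 ± 1.20, 6.55 ± 1.02, 3.54 ± 0.735 and 4.65 ± 1.18 on days 0, 2, 4 and 8 (SD, n = 3). In IMF they were 6.16 ± 1.78, 10.9 ± 5.44, 6.50 ± 0.894 and 6.82 ± 1.96 (SD, n = 3). The 3 BF-4d ratios, 4.09, 3.82 and 2.71, lay below all those of BF-2d and IMF-4d. The highest ratio, 17.1 in IMF-2d, rested on 22 reads of ssc-miR-212 in library 1.

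**Figure D4:**
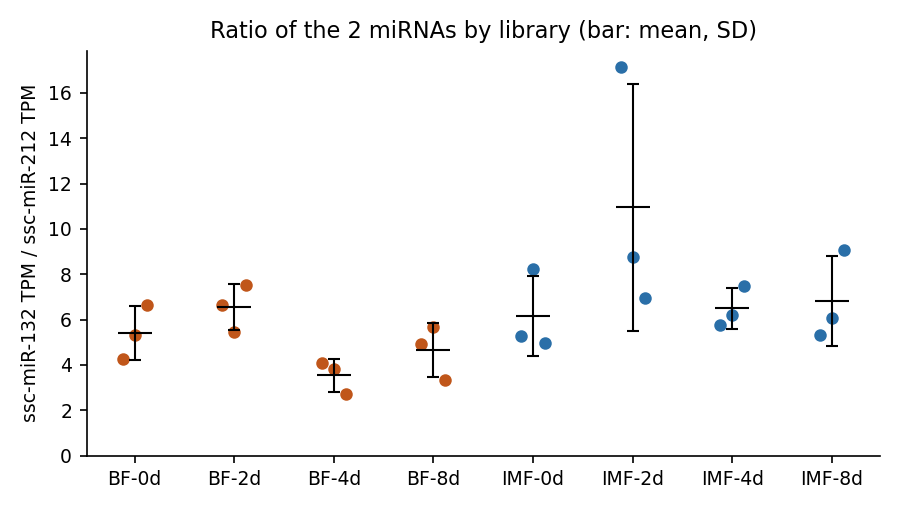
TPM of ssc-miR-132 divided by TPM of ssc-miR-212 (vertical axis, from 0) in each library of the 8 groups, with the mean and SD (n = 3) as bars. BF-4d has the lowest mean, 3.54, and 1 library of IMF-2d stands far above the rest at 17.1.

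The patterns of the pair over the 8 groups were compared with those of the other tested entries by Pearson r over group means of log2(TPM + 1). These r values describe 8 points that share their libraries and their library totals. The r between the members was 0.95. Among 429 entries, ssc-miR-212 stood in place 6 for ssc-miR-132, and ssc-miR-132 stood in place 5 for ssc-miR-212. The median r of all tested entries was 0.35 with ssc-miR-132 and 0.40 with ssc-miR-212.

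With the other member left out of each ranking, the 5 entries most like ssc-miR-132 were ssc-miR-324 (r = 0.98), novel_miR_298 (0.97), ssc-miR-30b-5p (0.96), ssc-miR-29b (0.96) and novel_miR_919 (0.95). Those most like ssc-miR-212 were ssc-miR-222 (0.97), novel_miR_885 (0.96), ssc-miR-29a-3p (0.96), ssc-miR-30b-5p (0.95) and ssc-miR-7141-5p (0.95). Of these, ssc-miR-324, novel_miR_919, novel_miR_885 and ssc-miR-7141-5p had means of 1.97, 2.49, 3.17 and 2.40 TPM. They had 498, 638, 797 and 599 reads over all libraries. At such levels log2(TPM + 1) understates change. Only ssc-miR-30b-5p, of a family known to favour fat cell differentiation, stood in both sets. Its means were 46.7, 121, 437 and 366 TPM in BF and 27.3, 31.1, 41.9 and 191 TPM in IMF, in order of day. ssc-miR-222, known to restrain differentiation, had means of 471, 467, 1898 and 1602 TPM in BF and 502, 355, 405 and 624 TPM in IMF. The entry novel_miR_298, a miRNA predicted by the authors, had 0, 2 and 0 reads in the BF-0d libraries, all under the floor of 3 reads, and 7, 1 and 0 reads in those of IMF-0d. Its means were 105 TPM in BF-8d and 22.6 TPM in IMF-8d.

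**Figure D5:**
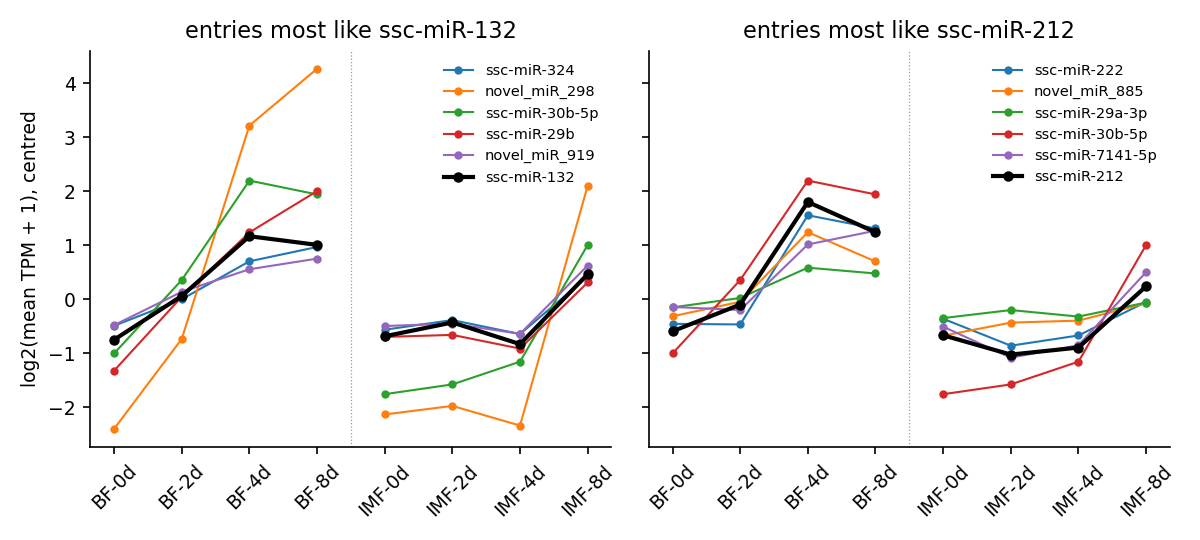
Log2(mean TPM + 1) of each entry minus its own mean over the 8 groups (vertical axis) by group, for ssc-miR-132, ssc-miR-212 (black) and the 5 entries outside the pair most like each (colours). Lines peak in BF-4d or BF-8d and are low in IMF up to day 4, with a wider range for novel_miR_298 than for the members.

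Neighbours were searched among the 958 entries with a sequence read. Of those with a precursor within 1 Mb on chromosome 12, the strands of miR-22 were abundant enough to test. ssc-miR-22-3p, from a hairpin 249212 bases away on the same strand at chr12:47913333-47913412, had means of 468, 493, 722 and 420 TPM in BF and 308, 316, 258 and 372 TPM in IMF, in order of day. It was lower in IMF than in BF on day 4 by −1.44 (SE 0.28, limma adjusted p = 0.0018) and on day 0 by −0.60 (SE 0.11, limma adjusted p = 0.0121). From day 0 to day 8 its differences were −0.15 (SE 0.18, limma adjusted p = 0.524) in BF and 0.25 (SE 0.18, limma adjusted p = 0.314) in IMF. ssc-miR-22-5p passed the criteria in 0 of the 12 comparisons by limma, and on day 8 it differed by −0.56 (SE 0.17, limma adjusted p = 0.0197), short of the fold change criterion. Whether these changes differ from those of the pair was not tested.

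The locus also gave reads on the other strand. The predicted entry novel_miR_1132 comes from a precursor on the plus strand over the miR-132 hairpin, at chr12:48162616-48162725, and its 20 bases are the reverse complement of bases 2 to 21 of ssc-miR-132. Bases 2 to 8 are in capitals.
novel_miR_1132: gACCAUGGcuguagacuguu
It had 20 reads in 9 libraries, with at most 5 in a library. novel_miR_1163, whose precursor ends 457 bases before the miR-212 hairpin on the minus strand, had 9 reads in 4 libraries. The predicted entries novel_miR_1234, novel_miR_44 and novel_miR_186, also within 1 Mb, had 23, 1 and 1 reads over all libraries. All 5 fell under the filter on low values.

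Lists of miRNAs with related roles were set beside the pair. Of 7 miRNAs known to respond to cyclic AMP, CREB, NF-kB or cytokine signals, all 7 were tested. From BF-0d to BF-8d 5 of them passed as higher and 2 as lower, beside 42.8% of all entries called. From IMF-0d to IMF-8d 3 passed as higher and 0 as lower, beside 30.5%, and from IMF-4d to IMF-8d 3 and 0, beside 13.0%. The median differences were 0.98, 0.42 and 0.50, beside 0.15, 0.07 and 0.18 over all tested entries. Between the sources on day 4, 1 passed as higher in IMF and 3 as lower, beside 36.3% of all entries. ssc-miR-21-5p, the most abundant of the list, fell from 572485 TPM in BF-0d to 355029 TPM in BF-8d, by −0.71 (SE 0.22, limma adjusted p = 0.0143), and had means of 574375 and 425302 TPM in IMF-0d and IMF-8d (−0.43, SE 0.19, limma adjusted p = 0.124). ssc-miR-146a-5p, an NF-kB target that damps inflammatory signalling, had means of 179, 91.4, 393 and 562 TPM in BF and 55.8, 43.2, 38.0 and 742 TPM in IMF. Its BF-4d mean rested on library 3, since the 3 libraries held 188, 172 and 820 TPM. ssc-miR-155-5p, which is induced in activated immune cells, had means of 498, 449, 868 and 1432 TPM in BF and 397, 342, 349.5 and 721 TPM in IMF. ssc-miR-146a-5p and ssc-miR-155-5p had their highest mean of each source on day 8.

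Of 13 miRNAs known to favour fat cell differentiation, 12 were tested. In BF 4 passed as higher from day 0 to day 8 and 0 as lower, beside 42.8% of all entries called, and in IMF again 4 and 0, beside 30.5%. On day 4, 0 passed as higher in IMF and 4 as lower, beside 36.3% of all entries, with a median difference of −0.50 beside −0.34. ssc-miR-148a-3p, the most abundant of them, had its lowest group mean in BF-0d, 120728 TPM, and its highest in BF-8d, 303301 TPM. ssc-miR-143-3p had means of 78979 and 59577 TPM in BF-0d and BF-8d (−0.44, SE 0.22, limma adjusted p = 0.115). ssc-miR-30a-5p was higher by 1.19 (SE 0.18, limma adjusted p = 4.3e-05) over the same days. Of 11 miRNAs known to restrain it, 10 were tested, and from BF-0d to BF-8d 4 passed as higher and 3 as lower, beside 42.8% of all entries. From IMF-0d to IMF-8d 1 passed as higher and 1 as lower, beside 30.5%. On day 4, 0 passed as higher and 5 as lower in IMF, beside 36.3%, with a median difference of −0.60. From BF-0d to BF-8d ssc-miR-27b-3p was lower by −0.94 (SE 0.18, limma adjusted p = 0.000512) and ssc-miR-145-5p by −1.34 (SE 0.21, limma adjusted p = 8.3e-05). ssc-let-7a differed by −0.18 (SE 0.19, limma adjusted p = 0.468). ssc-miR-155-5p stands both in this list and in the signal list.

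Marker miRNAs of other cell types were summed in each library, since a culture from muscle or fat can hold other cells, and fewer cells of a type cannot be told apart from less RNA per cell in bulk samples. Adipocyte markers are messenger RNAs and were not analysed here. Of 7 blood cell markers, ssc-miR-150 was at 0 in 23 libraries and ssc-miR-144 and ssc-miR-223 in 22 each. Their sum ran from 1.19 to 1.99 TPM in BF-0d, 2.81 to 6.37 TPM in BF-4d and 3.71 to 4.44 TPM in BF-8d. It ran from 1.31 to 1.87 TPM in IMF-0d, 0.662 to 1.60 TPM in IMF-4d and 6.68 to 8.08 TPM in IMF-8d. Within each source the sum was higher on day 8 than on day 0, as the pair was. On day 8 the sum was higher in IMF than in BF, the reverse of the pair. In IMF-8d most of the sum was ssc-miR-486, with a mean of 6.27 TPM, and of the 7 markers only this 1 passed the filter on low values. ssc-miR-451 had means of 0.555 TPM in BF-0d and 0.277 TPM in BF-8d. The part of these markers in the result was not tested.

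The 2 endothelial markers, which are the strands of miR-126, summed to 53.6 to 86.4 TPM in BF-4d and 18.7 to 30.9 TPM in IMF-4d. On day 0, where the pair was at like levels in both sources, they summed to 38.1 to 71.2 TPM in BF and 18.2 to 40.4 TPM in IMF. On day 8 they summed to 51.2 to 90.9 TPM in BF and 24.6 to 34.8 TPM in IMF. The 4 neural markers summed to 26.6 to 35.9 TPM in BF-0d, 33.0 to 69.6 TPM in BF-4d and 50.8 to 58.9 TPM in BF-8d. In IMF they summed to 23.1 to 27.2 TPM on day 0, 17.2 to 20.1 TPM on day 4 and 23.9 to 29.3 TPM on day 8. The largest part was ssc-miR-9, which is also in the signal list, with means of 25.9 TPM in BF-0d and 51.9 TPM in BF-8d, and 18.8 and 22.7 TPM in IMF-0d and IMF-8d. ssc-miR-219a had means of 5.25 and 2.28 TPM in BF and 5.56 and 2.44 TPM in IMF on the same days, lower on day 8 where ssc-miR-9 was higher. ssc-miR-137 was at 0 in 21 libraries. The 5 skeletal muscle markers summed to 475 to 2361 TPM over all libraries, mainly ssc-miR-1, and ssc-miR-206 was at 0 in 13 libraries. In BF the muscle sum was 818 to 1012 TPM on day 0, 475 to 544 TPM on day 2, 1042 to 1526 TPM on day 4 and 1324 to 2361 TPM on day 8, so it was higher on days 4 and 8, as the pair was. In IMF it was 909 to 1738 TPM on day 0, 696 to 985 TPM on day 4 and 982 to 1631 TPM on day 8. ssc-miR-133a-3p had means of 7.68 TPM in BF-0d, 22.4 TPM in BF-8d, 14.7 TPM in IMF-0d and 26.6 TPM in IMF-8d. In BF ssc-miR-499-5p went the other way, with means of 20.1, 16.4, 12.5 and 11.9 TPM in order of day. It had means of 13.0 TPM in IMF-0d and 12.1 TPM in IMF-8d. Of the 3 muscle markers tested, 2 passed as higher and 1 as lower from BF-0d to BF-8d, beside 42.8% of all entries. The part of any of these in the levels of the pair was not tested.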

How the data were processed

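Small RNA was sequenced from 24 libraries, 3 in each of 8 groups taken from the sample titles. Per the study's methods the authors mapped clean reads to Sscrofa11.1 with Bowtie, identified known miRNAs against miRBase, predicted others with miRDeep2 and used DESeq2 for differential expression. The values the authors deposited are named TPM and are RPM, reads per 1000000 reads on all listed miRNAs, without a length term. Whole reads were recovered from their steps: 100.0% of 38088 values lay within 0.01 reads of a whole number. In IMF-2d libraries 1 and 2, where 1 read is worth 0.0999 and 0.101 TPM, a separate check of the steps did not accept recovered reads, so read numbers there are less certain.

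In R 4.3.3, limma 3.58.1 with a trended eBayes step was fitted to log2(TPM + 1) of each pair of groups for the 430 entries averaging 1 TPM or more, with Benjamini-Hochberg adjustment, and called entries at a false discovery rate under 0.05 and a fold change above 1.5. The fit was tested on simulated data. As an alternative, edgeR 4.0.16 on the recovered reads called 1 to 188 entries per comparison and DESeq2 1.42.0 called 2 to 180. Other alternatives were the pseudocount, the filter, the scaling, the share without ssc-miR-21-5p, 1 fit of all libraries, a replicate block and each library left out. The members and lists were chosen with earlier results of these data known. Named entries were the members, entries sharing a seed or lying within 1 Mb, the 5 most alike, and at most 3 of each list by abundance. Mature sequences were matched to Sscrofa11.1 on both strands, genes came from RefSeq, and hairpins were folded with RNAfold 2.7.2. Replicates of a group differed by more than counting noise. The messenger RNA libraries were not analysed here.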

Additional observations from a re-analysis of the deposited data

Results flagged for a closer look

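For ssc-miR-132 the step from day 2 to day 4 ran in opposite directions in the sources. It was 1.09 in BF, where all 3 libraries of day 4 lay above those of day 2, and −0.40 in IMF, where all 3 lay below. The libraries did not overlap for 34.9% of the tested entries in BF and 22.1% in IMF over this step. The median tested entry itself moved by 0.13 in BF and −0.10 in IMF. The IMF step did not pass the criteria. The difference was not tested, since the miRNA was chosen with these levels known. Under a median-of-ratios scaling the values were 0.97 and −0.24.

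The predicted entry novel_miR_1132, antisense to ssc-miR-132 and used in no comparison, had 5 reads in the library with most, above the floor of 3 reads.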

How the results depend on the processing

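The direction of the 11 calls of the pair held under all alternatives, and ssc-miR-132 passed in 4 to 6 of 12 comparisons and ssc-miR-212 in 2 to 7, with 2 for ssc-miR-212 when low entries were not filtered. Of 256 values under other settings, 23 moved by more than the spread between libraries, and of 24 counts 3 moved. For ssc-miR-132 the values under DESeq2, edgeR and median-of-ratios scaling were −0.28, −0.25 and −0.24 in IMF-2d vs IMF-4d, 1.08, 1.09 and 1.11 in IMF-4d vs IMF-8d, 0.26, 0.30 and 0.22 in BF-0d vs IMF-0d, −1.60, −1.56 and −1.54 in BF-4d vs IMF-4d, and −0.28, −0.22 and −0.22 in BF-8d vs IMF-8d. Median-of-ratios scaling also gave 1.56 in BF-0d vs BF-8d and 1.21 for the BF change minus the IMF change from day 2 to day 4. With the share without ssc-miR-21-5p, ssc-miR-132 gave −0.55 in BF-4d vs BF-8d, 0.12 in IMF-0d vs IMF-2d, 0.98 in IMF-4d vs IMF-8d, 1.18 in BF-0d vs BF-8d and 0.73 in IMF-0d vs IMF-8d, and ssc-miR-212 gave 1.35 in BF-0d vs BF-8d. Leaving out each library in turn, the BF change minus the IMF change of ssc-miR-132 from day 0 to day 2 ran from 0.43 to 0.71. The cause was not tested.

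With the replicate number as a block, ssc-miR-132 passed in 5 comparisons and ssc-miR-212 in 6, as without it. Over all entries the block moved the count of calls from 18 to 0 in BF-0d vs BF-2d, from 26 to 42 in BF-2d vs BF-4d and from 53 to 9 in BF-2d vs IMF-2d. The numbers share no stated origin: of 84 correlations between same-numbered libraries 21 were over 0.1, with a range of −0.33 to 0.51, and 9 of 24 libraries correlated best with their own number. Of 28 pairs of groups, 1 had every same-numbered correlation over 0.1, BF-0d with IMF-0d (0.19 to 0.51), where 126 entries were called without the block and 127 with it and neither miRNA passed. Depth limits ssc-miR-212 most, with 22 reads in the library with fewest.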
